A study of Homo sapiens with 12 samples.

Results

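The 10 genes LRCH3, SLC25A46, ZWILCH, PRAG1, HSD3B7, FAM124A, C19orf33, TRIM52-AS1, AGPS and MSRB1 were chosen because their RNA was much higher in cells carrying an LTR8B guide than in cells carrying a GFP guide, with and without interferon beta (IFNB), although none lies near SP140, the gene that the LTR8B guide was aimed at. They are 10 of 60669 gene identifiers in the deposited table, and all 10 were among the 16393 genes that passed a filter on low counts and entered the tests. Since the guide difference was the criterion, the guide values of these genes are given as a description, with no test. The choice used no numeric threshold, and 19 other genes that were also higher in both guide comparisons are described further on.

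HT1080 is a human fibrosarcoma line, and every group was made of HT1080 cells that stably expressed dCas9, a Cas9 that binds DNA without cutting it. In the CRISPR interference (CRISPRi) set-up, a guide RNA leads dCas9 to a chosen site and transcription from that site is lowered. The GFP group carried a control guide (2 untreated libraries and 2 with IFNB), and the LTR8B group carried a guide to an LTR8B element (4 untreated libraries and 4 with IFNB). LTR8B is a retroviral long terminal repeat, and the copy targeted here sits in intron 1 of SP140. IFNB was given at 10 U/mL for 4 h, and polyadenylated RNA was sequenced. Each guide was carried by its own line, so the effect of the guide and any difference between the lines cannot be told apart. Neither the origin of a line (clone or pool) nor that of the replicates (separate cultures or not) is given in the sources used here. The p-values therefore measure only how far these libraries spread, which may be technical.

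SP140 codes for a chromatin reader of nuclear bodies that is best known from immune cells. Interferon beta acts through its receptor and the STAT proteins to raise a broad antiviral programme within hours. The 10 genes belong to no common pathway: they include a kinetochore subunit, a protein of the mitochondrial outer membrane, enzymes of bile acid, ether lipid and methionine sulfoxide metabolism, a pseudokinase and an antisense RNA.

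SP140 checked the labels. Its level, as a normalised read count (CPM, library totals scaled by TMM factors), was 30.8 and 29.8 in the untreated GFP libraries and 32.0 and 29.8 in those with IFNB. In the LTR8B libraries it was 1.84, 0.515, 1.51 and 1.13 untreated and 1.48, 1.07, 1.46 and 0.901 with IFNB. Every LTR8B library was thus below every GFP library, at a mean 0.0413 of the GFP level without IFNB and 0.0397 with it. Library totals ranged from 12404270 to 28801579 counts, at which 3 counts correspond to 0.104 to 0.242 CPM. Of the marker lists, 10 of 10 mesenchymal genes passed the low-count filter. Of the epithelial markers 3 of 10 passed, namely KRT8, KRT18 and CLDN4. EPCAM, CDH1, KRT19, CLDN7, ESRP1 and GRHL2 were filtered out, and KRT5 was at 0 in all libraries. The epithelial markers summed to 383 to 452 CPM in GFP libraries and 352 to 431 CPM in LTR8B libraries. Of the neural markers 4 of 10 passed. Of the haematopoietic markers 6 of 10 passed (PTPRC, CD14 and SPI1 were among those that did not). Their summed level was 916 to 1007 CPM in GFP libraries and 1071 to 1228 CPM in LTR8B libraries. Most of that sum was LCP1, an actin-bundling protein, which was higher with the LTR8B guide (averaged log2 fold change 0.32, edgeR adjusted p = 0.00474), whereas LAPTM5 was lower (-1.12, edgeR adjusted p = 0.00154), as was CSF1R (-0.57, edgeR adjusted p = 0.00486). Of the other marker lists, the mesenchymal factor SNAI2 (0.63, edgeR adjusted p = 0.00510) and the neural marker NCAM1 (0.38, edgeR adjusted p = 0.0141) were higher with the LTR8B guide. SNAI2 and NCAM1 were single genes of their lists. Of the 6 haematopoietic genes tested, 1 passed as higher and 2 as lower in the averaged guide comparison, beside 2.14% of all tested genes. Their median averaged difference was -0.25, with 4 of them at an unadjusted edgeR p under 0.05. The median averaged difference was -0.11 over the 10 mesenchymal genes, 5 of them at an unadjusted edgeR p under 0.05. It was 0.02 over the 4 neural genes tested. What part these markers have in the guide differences below was not tested.

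The genes were scattered over 8 chromosomes. Of them 9 are protein coding and 8 lie on the plus strand. Only AGPS lies on the chromosome of SP140, and its end lies 52.6 Mb before the start of SP140. The stretch before the transcription start is printed here for 6 of them, as a description of genes that were chosen for standing higher in the same libraries. The sequences are RefSeq promoter windows of GRCh38.p14 (250 bases before to 50 after the start), cut to the part outside the exons of protein-coding genes, and each reads 5′ to 3′ along the gene's own strand. Capitals mark matches, on either strand, to 5 of the motifs searched. These were the GC box, spelled GGGCGG, the CCAAT box, the binding motif of ETS factors, spelled CCGGAAG, the E-box, spelled CACGTG, and the interferon-gamma-activated site (GAS), spelled TTCNNNGAA.
LRCH3, chr3:197791004-197791234, plus strand: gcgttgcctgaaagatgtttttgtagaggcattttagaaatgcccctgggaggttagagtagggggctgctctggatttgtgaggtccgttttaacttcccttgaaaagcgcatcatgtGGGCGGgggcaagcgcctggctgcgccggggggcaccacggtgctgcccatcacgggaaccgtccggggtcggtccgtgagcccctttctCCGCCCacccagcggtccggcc
MSRB1, chr16:1943327-1943449, minus strand: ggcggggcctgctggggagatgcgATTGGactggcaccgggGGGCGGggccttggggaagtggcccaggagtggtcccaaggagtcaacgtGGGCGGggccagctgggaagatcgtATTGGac
HSD3B7, chr16:30984957-30985206, plus strand: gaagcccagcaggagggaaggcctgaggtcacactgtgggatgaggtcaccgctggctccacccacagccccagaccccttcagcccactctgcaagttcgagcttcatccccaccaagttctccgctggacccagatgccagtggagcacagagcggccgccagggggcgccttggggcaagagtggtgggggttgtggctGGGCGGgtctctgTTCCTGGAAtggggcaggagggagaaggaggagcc
SLC25A46, chr5:110738957-110738993, plus strand: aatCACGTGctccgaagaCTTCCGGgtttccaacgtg
TRIM52-AS1, chr5:181261119-181261211, plus strand: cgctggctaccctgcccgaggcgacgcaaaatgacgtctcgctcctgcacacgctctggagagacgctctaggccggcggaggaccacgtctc
AGPS, chr2:177392523-177392572, plus strand: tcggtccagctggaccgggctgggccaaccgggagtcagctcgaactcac

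Of the 10 genes 7 had a RefSeq window that was searched, namely these 6 and ZWILCH. The GC content of the windows was 51.0 to 72.3% with a median of 66.3%, beside a median of 58.3% over 27305 windows. They held 12 to 37 CG dinucleotides, with a median of 25 beside 14 over all windows. All windows means 27305, 1 per gene symbol, not limited to genes that passed the low-count filter, as the 10 genes did. A GC box was present in 5 of 7 windows (AGPS, LRCH3, ZWILCH, MSRB1 and HSD3B7), and 44.6% of all windows held 1. The CCAAT box was present in the windows of ZWILCH and MSRB1 (35.7% of all windows). The window of SLC25A46 held the ETS motif (10.7% of all windows) and the E-box (7.43%), that of LRCH3 the NRF1 motif (6.28%) and that of HSD3B7 the GAS motif (7.88%). The interferon-stimulated response element (ISRE, 3.65% of all windows) had no match in the 7 windows. Neither had the TATA box, spelled TATAAA (12% of all windows), the AP-1 motif, spelled TGANTCA (7.76%), the CRE, spelled TGACGTCA (1.98%), the YY1 motif, spelled AAGATGGCG (1.85%), or the E2F motif, spelled TTTGGCGC (0.659%). All motifs were searched on both strands, and CG-rich motifs can overlap each other. A match describes the letters only. No single motif was found in all 7 windows, and the motifs that were found also occur in windows of many other genes.

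In each of the 10 genes the lowest LTR8B library lay above the highest GFP library. The ratio of that lowest to that highest library ran from 1.94 for AGPS to 5.41 for FAM124A. The log2 difference, LTR8B over GFP, had a median of 2.14 untreated (range 1.25 to 3.52) and 2.08 with IFNB (1.11 to 3.69), beside medians over all tested genes of 0.01 and -0.00. All 10 passed an adjusted p of 0.05 in both comparisons, but they were chosen for a large difference in these libraries, so this is no test. Over all tested genes, 0.360% passed untreated (0.244% as higher with the LTR8B guide) and 0.354% passed with IFNB (0.232% as higher). For the guide difference averaged over both treatments 2.14% of all tested genes passed, and 1.15% of all tested genes passed as higher. The summed level of the 10 genes was 132 to 140 CPM in the 4 GFP libraries and 414 to 472 CPM in the 8 LTR8B libraries. In the plot of levels, every gene is higher with the LTR8B guide, by an amount that differs from gene to gene.

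**Figure D1:**
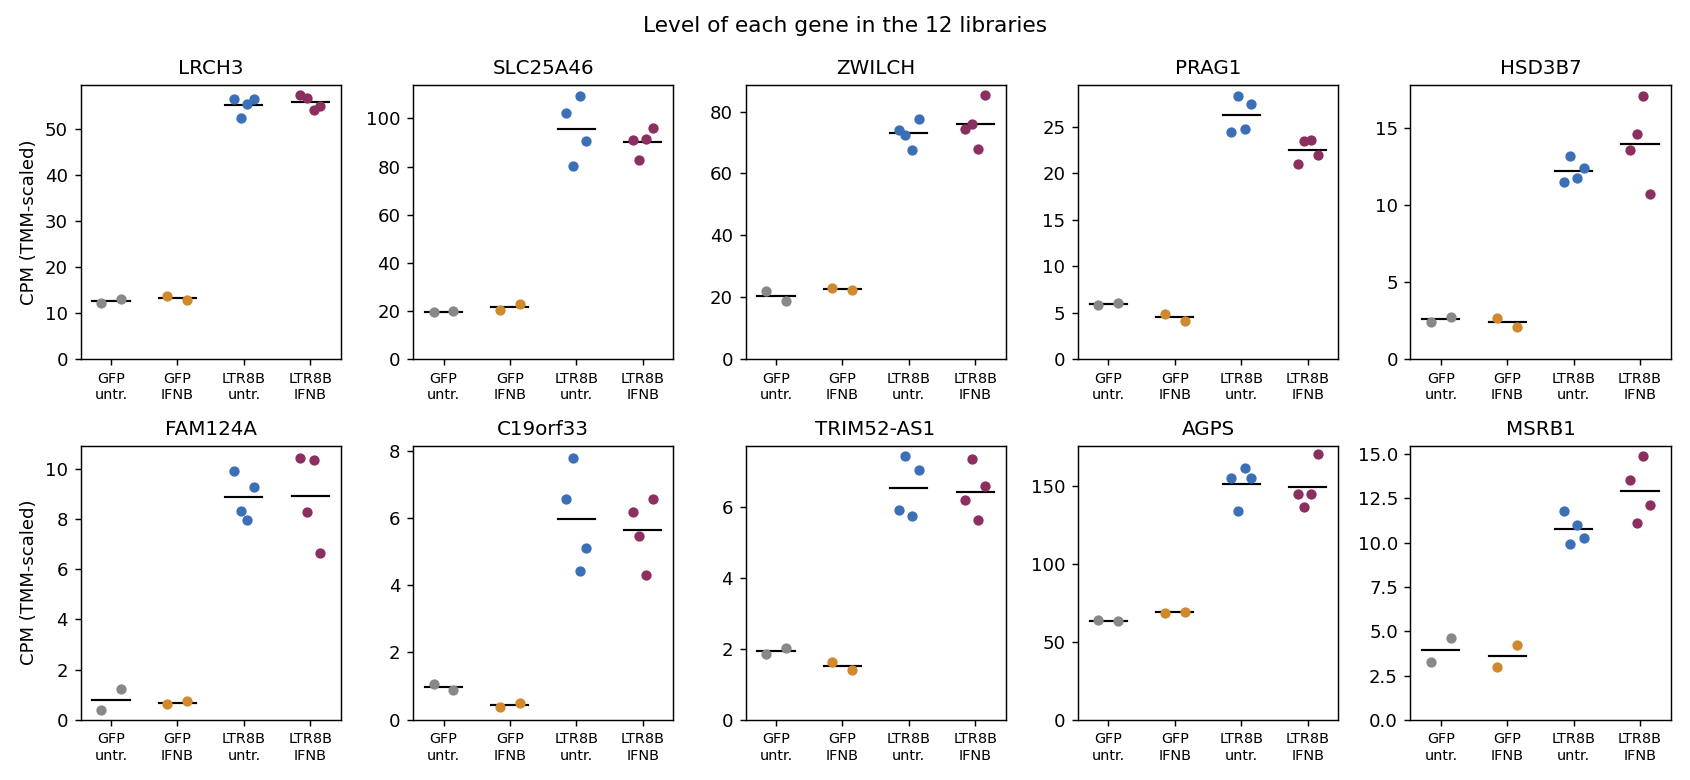
Level (CPM, TMM-scaled, linear axes from 0) of each gene in the 12 libraries, grouped by guide and treatment, where each point is 1 library and the line is the group mean. In every panel all LTR8B points lie above all GFP points, and the untreated and IFNB groups of 1 guide lie close together.

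ZWILCH, the subunit that joins KNTC1 and ZW10 in the RZZ complex, which brings dynein and checkpoint proteins to kinetochores, measured 21.8 and 18.8 CPM in untreated GFP libraries and 23.1 and 22.5 CPM in those with IFNB. In LTR8B libraries it measured 73.9, 72.6, 67.7 and 77.5 CPM untreated and 74.5, 76.0, 67.9 and 85.3 CPM with IFNB. Its log2 difference between the guides was 1.84 (SE 0.10) untreated and 1.74 (SE 0.10) with IFNB, a ratio of means of 3.59 and 3.33. Its partners in the complex did not pass: the averaged log2 guide difference was 0.01 for KNTC1 (edgeR adjusted p = 0.936) and 0.04 for ZW10 (edgeR adjusted p = 0.789). SLC25A46, a solute carrier relative in the mitochondrial outer membrane that acts on mitochondrial fission, fusion and cristae, measured 19.4 and 19.97 CPM in untreated GFP cells and 20.5 and 22.8 CPM with IFNB. With the LTR8B guide it measured 102, 80.1, 109 and 90.5 CPM untreated, and 91.2, 82.6, 91.3 and 96.0 CPM with IFNB. Its log2 difference was 2.28 (SE 0.12) untreated and 2.06 (SE 0.12) with IFNB.

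AGPS, the peroxisomal enzyme that forms the ether bond of ether lipids, was the most abundant of the 10 and had the smallest difference. Its levels were 64.1 and 63.1 CPM untreated and 68.7 and 69.3 CPM with IFNB in GFP libraries, and 155, 134, 162 and 155 CPM untreated and 145, 137, 145 and 171 CPM with IFNB in LTR8B libraries. The log2 difference was 1.25 (SE 0.09) untreated and 1.11 (SE 0.09) with IFNB, or ratios of 2.38 and 2.16. GNPAT, which makes the substrate of AGPS in the peroxisome, did not pass (averaged log2 difference -0.02, edgeR adjusted p = 0.884). HSD3B7, an enzyme of the endoplasmic reticulum that acts early in bile acid synthesis from cholesterol, was at 2.42 and 2.73 CPM untreated and 2.67 and 2.09 CPM with IFNB in GFP libraries. It reached 11.5, 13.2, 11.8 and 12.4 CPM untreated and 13.6, 14.7, 17.1 and 10.7 CPM with IFNB in LTR8B libraries, log2 differences of 2.25 (SE 0.18) and 2.54 (SE 0.19). Of 18 other listed genes of bile acid synthesis 9 passed the low-count filter, and CYP7A1, the rate-limiting enzyme of the pathway, had no count in any library, which allows up to 0.104 to 0.242 CPM. MSRB1, a selenoprotein that reduces oxidised methionine, was at 3.25 and 4.62 CPM untreated and 3.004 and 4.23 CPM with IFNB in GFP libraries. In LTR8B libraries it was at 11.8, 9.94, 10.98 and 10.3 CPM untreated and 13.5, 11.1, 14.9 and 12.1 CPM with IFNB, log2 differences of 1.46 (SE 0.17) and 1.83 (SE 0.18).

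LRCH3, a leucine-rich repeat and calponin homology protein that acts on septins, had the tightest replicates, with a biological coefficient of variation of 5.52%. It measured 12.2 and 13.1 CPM untreated and 13.7 and 12.8 CPM with IFNB in GFP libraries. In LTR8B libraries it measured 56.7, 52.5, 55.5 and 56.6 CPM untreated and 57.4, 56.8, 54.3 and 55.1 CPM with IFNB. That is 55.3 ± 1.96 CPM (SD, n = 4) against 12.7 ± 0.662 CPM (SD, n = 2) untreated, a log2 difference of 2.13 (SE 0.08), and 2.07 (SE 0.08) with IFNB. Of its relatives, LRCH1 had an averaged difference of 0.22 (adjusted p = 0.0686) and LRCH4 of -0.17 (adjusted p = 0.186). PRAG1 is a pseudokinase of the PEAK family that binds the kinase CSK, and lies on chromosome 8. It measured 5.78 and 6.08 CPM untreated and 4.82 and 4.13 CPM with IFNB in GFP libraries. With the LTR8B guide it measured 24.4, 28.3, 24.8 and 27.5 CPM untreated and 20.97, 23.5, 23.5 and 21.997 CPM with IFNB. Its log2 difference was 2.14 (SE 0.11) untreated and 2.33 (SE 0.12) with IFNB, while its relative PEAK1 differed by 0.17 on average (adjusted p = 0.108).

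FAM124A, a gene with little known function, and C19orf33, also known as IMUP, were close to the detection limit in GFP cells. FAM124A had 10 and 26 counts untreated and 13 and 15 with IFNB in the GFP libraries (0.378, 1.22, 0.620 and 0.746 CPM). With the LTR8B guide its level was 9.91, 8.29, 7.94 and 9.26 CPM untreated and 10.4, 8.27, 10.3 and 6.63 CPM with IFNB. The log2 difference was 3.52 (SE 0.31) untreated and 3.69 (SE 0.33) with IFNB, the largest of the 10, but the untreated value rests on which GFP library is kept: it was 2.84 without replicate 1 and 4.52 without replicate 2. C19orf33 had 28 and 19 counts untreated and 8 and 10 with IFNB in GFP libraries (1.06, 0.895, 0.381 and 0.497 CPM). In LTR8B libraries it was at 6.55, 7.78, 4.42 and 5.09 CPM untreated and 6.17, 5.46, 4.31 and 6.57 CPM with IFNB. Its log2 differences were 2.58 (SE 0.27) and 3.68 (SE 0.32), and its coefficient of variation of 16.8% was the highest of the 10. TRIM52-AS1, a noncoding RNA transcribed away from the ubiquitin ligase gene TRIM52, was at 1.85 and 2.03 CPM untreated and 1.62 and 1.39 CPM with IFNB in GFP libraries. It was at 5.90, 7.42, 5.73 and 7.05 CPM untreated and 6.17, 7.33, 5.61 and 6.57 CPM with IFNB in LTR8B libraries, log2 differences of 1.75 (SE 0.18) and 2.09 (SE 0.19).

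Scaled to the length of their exons, the genes spanned a wide range. In untreated GFP cells AGPS was highest at 7.09 CPM per kb, followed by ZWILCH at 4.19 and SLC25A46 at 2.37. MSRB1 (1.82), C19orf33 (1.58) and TRIM52-AS1 (1.47) followed with overlapping replicate ranges between neighbours in that order, then PRAG1 at 1.21, HSD3B7 at 1.03 and LRCH3 at 1.00, the last pair overlapping. FAM124A was lowest at 0.1196 CPM per kb. In untreated LTR8B cells AGPS (16.9) and ZWILCH (15.04) overlapped at the top, then SLC25A46 (11.5) and C19orf33 (9.66) overlapped. PRAG1 (5.35), MSRB1 (4.99), TRIM52-AS1 (4.96) and HSD3B7 (4.90) could not be ordered beyond their spread. LRCH3 (4.38) had a lower mean, but its range overlapped that of TRIM52-AS1, and FAM124A (1.32) came last. Among all tested genes, the levels in CPM lay between the percentiles 11.3 and 78.7 in GFP cells and between 34.1 and 91.8 in LTR8B cells.

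**Figure D2:**
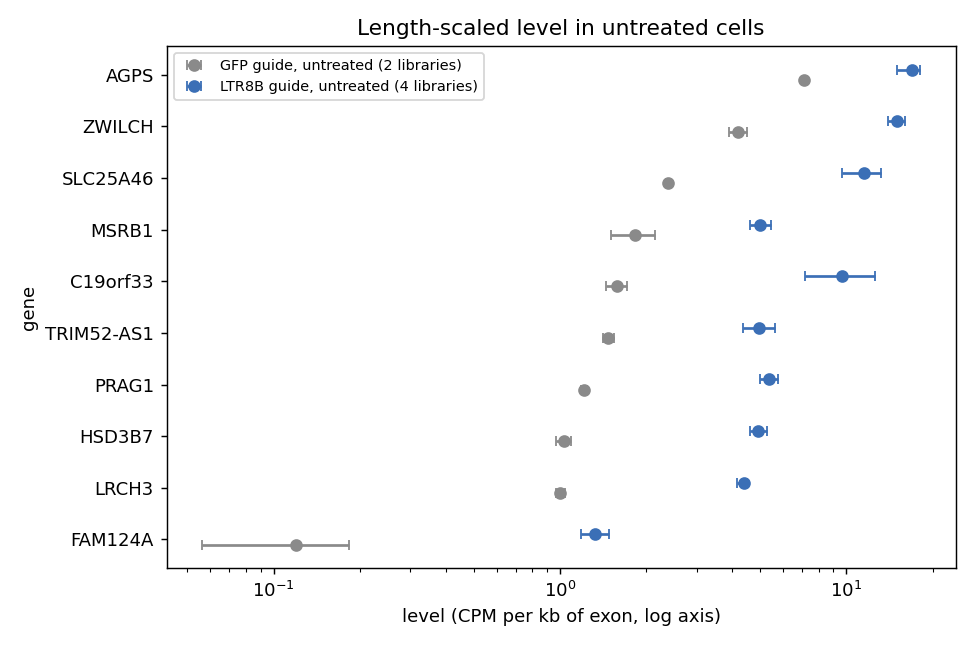
Mean level per kb of merged exons (CPM per kb, log axis) in untreated cells of either guide, with bars from the lowest to the highest library. AGPS has the highest mean with both guides, where its range overlaps that of ZWILCH with the LTR8B guide, and FAM124A is lowest with both.

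The response to IFNB was not itself the criterion and was tested over all genes with edgeR. The choice did use the IFNB libraries, since it asked for a stable guide difference in both treatments. In GFP cells 0 of 10 passed an adjusted p of 0.05 (2 had an unadjusted p under 0.05; DESeq2 and limma-voom also called 0), beside 3.20% of all tested genes. In LTR8B cells 0 of 10 passed (1 at an unadjusted p under 0.05; 0 by DESeq2 and by limma-voom), beside 4.50% of tested genes. For the response averaged over both lines 1 of 10 passed, beside 6.29% of tested genes. The median log2 response was -0.11 in GFP cells and -0.00 in LTR8B cells, where the medians over all tested genes were -0.01 and -0.01. With the replicate number as a block within each line, 1598 in place of 1031 genes passed the averaged response, and still 1 of the 10.

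The gene that passed was PRAG1, which fell by 0.31 (SE 0.08) on the log2 scale averaged over both lines (adjusted p = 0.0240). Its mean went from 5.93 ± 0.208 to 4.47 ± 0.487 CPM (SD, n = 2 each) in GFP cells and from 26.2 ± 1.92 to 22.5 ± 1.24 CPM (SD, n = 4 each) in LTR8B cells. All 6 IFNB libraries lay below all untreated libraries of their own line. The size was -0.40 (SE 0.14, adjusted p = 0.208) in GFP cells and -0.22 (SE 0.08, adjusted p = 0.162) in LTR8B cells. The call was lost with limma-voom (adjusted p = 0.0683) and without untreated GFP replicate 1 (0.0742), untreated GFP replicate 2 (0.117) or IFNB-treated GFP replicate 2 (0.194).

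C19orf33 had the widest IFNB value, -1.15 (SE 0.42, adjusted p = 0.248) in GFP cells, from the 8 to 28 counts given above, and -0.06 (SE 0.17, adjusted p = 0.954) in LTR8B cells. MSRB1 was 0.25 (SE 0.12, adjusted p = 0.412) in LTR8B cells and -0.11 (SE 0.21) in GFP cells. For LRCH3 the IFNB response was 0.07 (SE 0.10, adjusted p = 0.818) in GFP cells and 0.02 (SE 0.06, adjusted p = 0.965) in LTR8B cells, small beside its guide difference. The other 6 genes had log2 responses between -0.36 (TRIM52-AS1 in GFP cells, SE 0.23) and 0.19 (HSD3B7 in LTR8B cells, SE 0.12). The plot of effects sets these values beside the guide differences on the same scale.

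**Figure D3:**
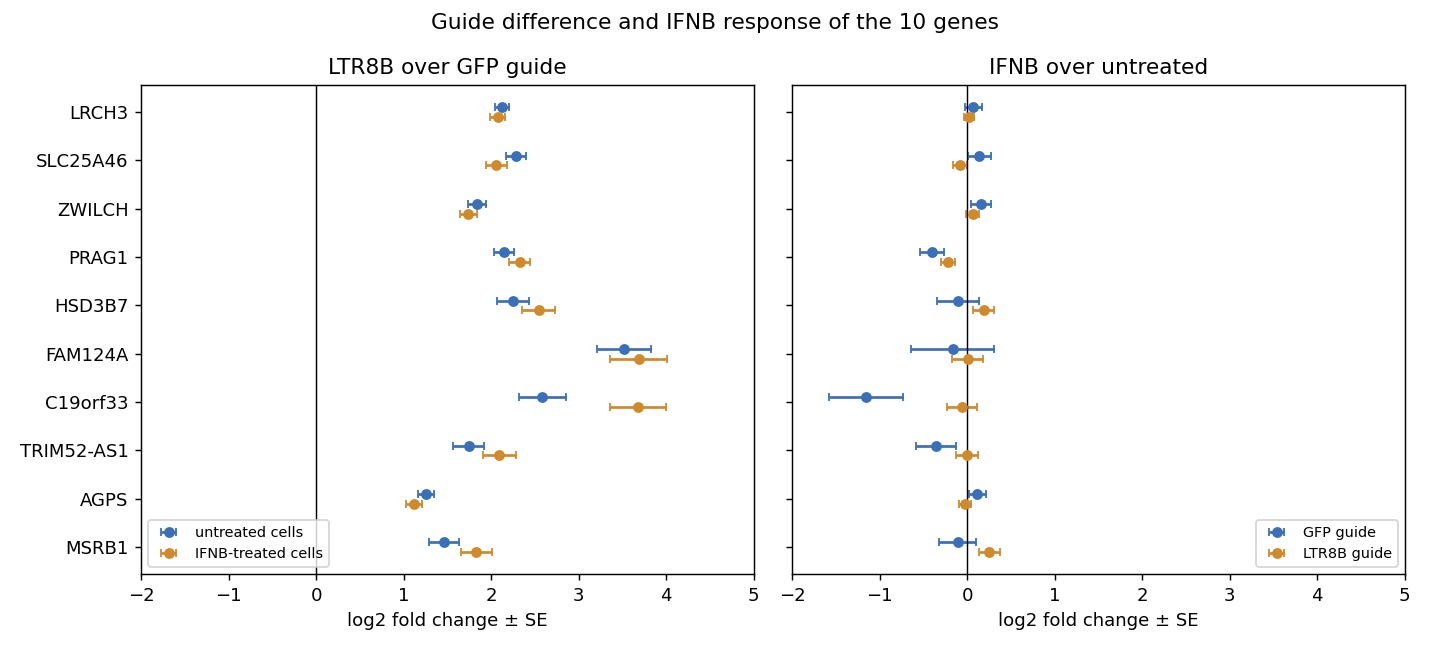
Log2 fold changes with standard errors from the edgeR fit, on a shared horizontal scale: LTR8B over GFP guide in untreated and in IFNB-treated cells (left), and IFNB over untreated in cells of either guide (right). The guide differences lie between 1.11 and 3.69, and the IFNB responses lie around 0, with C19orf33 in GFP cells lowest at -1.15.

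Genes beside the 10 were tested to see whether the guide difference extended to their neighbourhood. Within 250 kb there were 98 other tested genes. In the averaged guide comparison 2 of them were higher and 1 lower, beside 2.14% of all tested genes, and their median log2 difference was -0.04. At an unadjusted p under 0.05 there were 18 of the 98, beside 2593 of all 16393, so these counts lay close to those over all genes. Within 1 Mb there were 275, of which 2 were higher and 4 lower. Most of the nearest tested genes did not pass: beside C19orf33, YIF1B was at -0.08 (SE 0.09) and SPINT2 at 0.22 (SE 0.30), beside FAM124A, INTS6 was at 0.02 (SE 0.07), and beside MSRB1, NDUFB10 was at 0.05 (SE 0.07) and FAHD1 at 0.04 (SE 0.06). SETD1A, the histone methyltransferase gene 0.543 kb from HSD3B7, was at -0.22 (SE 0.06, adjusted p = 0.0574), opposite in sign to its neighbour. IQCG beside LRCH3 was at -0.26 (SE 0.16, adjusted p = 0.471).

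By their GENCODE starts, 4 of the 10 genes start within 100 bp of a gene that runs the other way, a layout noticed after the values were seen. The share of all tested genes with this layout was not counted, so the 4 of 10 is a description only. The RefSeq starts behind the promoter windows lie further downstream for SLC25A46, ZWILCH and AGPS. Distances were not measured from those starts, and within 100 bp may not hold there. ZWILCH starts 76 bp from RPL4, the ribosomal protein gene, whose averaged log2 guide difference was 0.01 (SE 0.05, adjusted p = 0.927). AGPS starts 53 bp from NFE2L2, which codes for the oxidative stress factor NRF2 and which was at 0.13 (SE 0.05, adjusted p = 0.209). SLC25A46 starts 38 bp from TMEM232, at 1.75 (SE 0.56, adjusted p = 0.124) on 0 to 16 counts per library. TRIM52-AS1 starts 73 bp from TRIM52, which was higher by 0.35 (SE 0.09, adjusted p = 0.0498), and it passed in 5 of 17 alternative analyses (adjusted p from 0.0263 to 0.207). Its means were 8.59 and 9.89 CPM untreated (GFP and LTR8B) and 7.02 and 9.92 CPM with IFNB. The groups overlapped without IFNB, and with IFNB every LTR8B library lay above both GFP libraries. The averaged log2 differences of ZWILCH (1.79), AGPS (1.18) and TRIM52-AS1 (1.92) stood beside these values of 0.01, 0.13 and 0.35. That of SLC25A46 (2.17) stood beside the 1.75 of TMEM232, on the few counts given above. AGPS also has a second partner, described next, with a larger value than NFE2L2.

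The neighbour with the largest difference was a transcript that overlaps AGPS on the other strand and starts 37 bp from its GENCODE start, ENSG00000213963.6 (AC019080.1 in GENCODE). It had 1 and 1 counts untreated and 5 and 5 with IFNB in GFP libraries, and 21, 22, 47 and 15 untreated and 30, 25, 20 and 19 with IFNB in LTR8B libraries. Its averaged log2 difference was 3.49 (SE 0.36, edgeR adjusted p = 2.39e-05), and it passed in all 17 alternative analyses. From 105 counts against 2 the untreated ratio was 27.7 (95% exact interval 7.48 to 231.8), and from 94 against 10 the IFNB ratio was 5.32 (2.77 to 11.5), where the intervals cover counting error only. TTC30B, which lies inside AGPS on the other strand, was lower (-0.42, SE 0.10, adjusted p = 0.0413), with means of 8.15 and 6.31 CPM untreated and 8.85 and 6.38 CPM with IFNB (GFP and LTR8B). It passed in 8 of 17 alternatives (adjusted p from 0.0105 to 0.219). The sources used here do not give the strand setting of the counting, and reads of AGPS, SLC25A46, ZWILCH or TRIM52-AS1 and of genes that overlap them may not be told apart. TRIM52-AS1 overlaps CTC-338M12.4 on the same strand, so strand alone would not separate their reads. CTC-338M12.4 had means of 9.40 and 9.99 CPM untreated (GFP and LTR8B). Its averaged log2 difference was -0.06 (SE 0.09, edgeR adjusted p = 0.819).

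**Figure D4:**
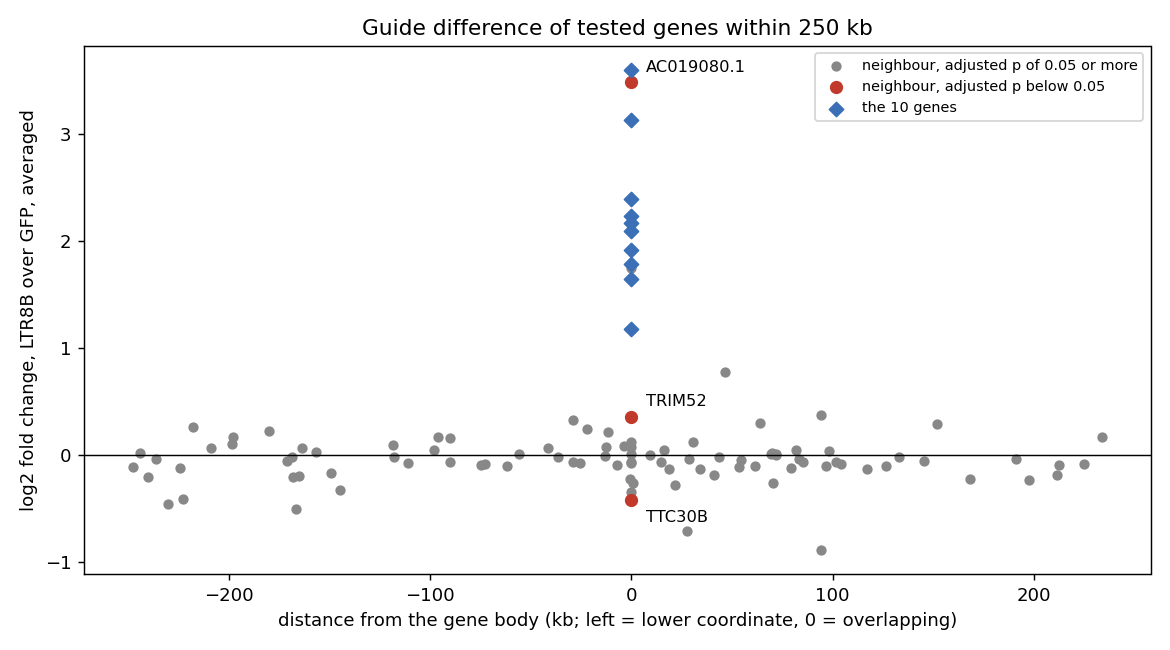
Averaged log2 guide difference (LTR8B over GFP) of tested genes within 250 kb, against distance from the body of the nearby gene among the 10 (kb, 0 for overlapping genes and for the 10 genes themselves). The 10 genes lie between 1.18 and 3.60, while 3 of 98 neighbours passed an adjusted p of 0.05: AC019080.1 and TRIM52 as higher and TTC30B as lower.

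In the IFNB response, 2 of the 98 neighbours within 250 kb passed in GFP cells, beside 3.20% of all tested genes. In LTR8B cells 2 of 98 passed, beside 4.50%. In the averaged response 2 were higher and 1 lower, beside 6.29%. The neighbours thus passed no more often than genes in general. Beside LRCH3, FYTTD1, an mRNA export factor, rose by 0.60 (SE 0.08, edgeR adjusted p = 6.33e-05) in GFP cells and by 0.49 (SE 0.06, edgeR adjusted p = 7.86e-06) in LTR8B cells. RUBCN, a regulator of autophagy 41.5 kb from LRCH3, rose by 0.74 (SE 0.09, adjusted p = 2.66e-05) and 0.84 (SE 0.06, adjusted p = 3.53e-08). For LRCH3 itself the responses were the 0.07 and 0.02 given above. PHKG2 near HSD3B7 fell by 0.34 (SE 0.09, adjusted p = 0.0355) in the averaged response.

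Other genes of the pathways were taken from 7 lists: RZZ complex and kinetochore (21 tested genes besides the 10), mitochondrial fusion, fission and cristae (19), bile acid synthesis (9), ether lipid synthesis and peroxisomal import (13), methionine sulfoxide reductases and selenoproteins (23), LRCH, DOCK and septin scaffold (12), and PEAK pseudokinases and partners (14). Of these 111 genes 0 were higher and 0 lower with the LTR8B guide by edgeR in the averaged comparison, beside 2.14% of all tested genes. At an unadjusted p under 0.05 there were 18 of the 111, beside 2593 of all 16393. limma-voom also called 0, and DESeq2 called 3, LRCH1 at 0.23, PEAK1 at 0.17 and TXNRD1, the cytosolic thioredoxin reductase, at 0.25. The median averaged difference over the 111 genes was 0.01, beside 0.00 over all tested genes. In the averaged IFNB response 3 of 111 passed (2.70%, beside 6.29% of all tested genes), all higher: RND3, of the PEAK list, by 1.43, LRCH2 by 0.64 (adjusted p = 0.00117) and FAR2, which makes fatty alcohols for ether lipids, by 0.22 (adjusted p = 0.0267).

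In all, 29 genes were higher with the LTR8B guide at an adjusted p of 0.05 in both treatments: the 10 and 19 others. The largest others by averaged log2 difference were ENSG00000213963.6 (3.49), described above, the histone gene H2BC15 (2.38), ARRB1 (1.44), which codes for beta-arrestin 1, the receptor tyrosine kinase gene ERBB2 (1.07), HDDC3 (1.04), DUSP3 (0.90), SUMO3 (0.66), GPNMB (0.65), BCOR (0.63), LUC7L2 (0.59) and SCPEP1 (0.57). ENSG00000213963.6, H2BC15 and ARRB1 thus lay above AGPS (1.18), the lowest of the 10, and ERBB2 lay just below it. By Pearson's r over the 12 libraries with the mean centred log2(CPM + 1) of the 10 genes, the most alike other genes were DUSP3 (0.986), ARRB1 (0.983), SUMO3 (0.979), ERBB2 (0.979) and H2BC15 (0.974), where the 10 themselves had r from 0.971 to 0.998. These r reflect the step between the guides that chose the genes, and are a description. With the group means taken out, 18 of 45 pairs of the 10 genes had a positive r over the 8 LTR8B libraries. The median of these pair values was -0.12, with a range of -0.90 to 0.80. ERBB2, for example, was at 15.2 and 21.1 CPM untreated and 16.6 and 16.5 CPM with IFNB in GFP libraries, and at 33.2 to 38.6 CPM in LTR8B libraries.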

How the data were processed

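RNA-seq counts for 12 libraries were taken from the table of raw counts per gene that the authors deposited. Per the submitters' processing notes, Salmon 0.13.1, DESeq2 1.38.3 and hg38 were used, with no roles given. The authors also deposited a normalized table, a signal equal to the counts divided by 1 factor per library (0.600 to 1.46), which served only as a check. Genes were filtered with filterByExpr (minimum count 10, minimum total 15), scaled by TMM and tested with the edgeR 4.0.16 quasi-likelihood test in R 4.3.3, all 4 groups in one fit, with Benjamini-Hochberg adjustment over 16393 genes. DESeq2 1.42.0, limma 3.58.1 (voom), DESeq2 size factors, no filter, replicate blocks and each library left out served as alternatives. The script was tested on simulated counts. Positions came from GENCODE release 29 and promoters from RefSeq. The members and gene lists were chosen with earlier results of these data known. Named were the 10 genes, SP140, the nearest or called neighbours, called listed genes, the 5 most alike genes and up to 10 others higher in both comparisons; LRCH1, LRCH4, KNTC1, ZW10, GNPAT, PEAK1, TXNRD1, CYP7A1, LCP1, LAPTM5, CSF1R, RUBCN and PHKG2 were named after their values were seen. Replicate numbers, from the sample titles, paired libraries across treatments within the LTR8B line (correlations of deviations 0.334, 0.360, 0.123 and 0.317) and were 0.162 in the GFP line.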

Additional observations from a re-analysis of the deposited data

How the results depend on the processing

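The guide differences of the 10 genes kept their sign in 510 of 510 alternative values (lowest 1.04; 14 moved by more than 1 SD of the replicates), and their averaged median, 2.14, ran from 2.12 to 2.16 with 1 library left out. The genes were chosen for a large, stable difference in these same libraries, so the kept sign follows from the choice and is no test. Of 540 alternative IFNB values 33 had the other sign without a call, and 4, all of PRAG1, lost the call. The number of genes called changed with the processing. In the untreated guide comparison it was 59, but 177 with DESeq2, 325 without the low-count filter and 22 to 94 with 1 library left out. In the guide comparison with IFNB it was 58, but 120, 260 and 21 to 69. In the averaged guide comparison it was 351, but 590, 775 and 93 to 461. The IFNB response in GFP cells called 524 genes and 344 to 594 with 1 library left out, and the averaged response 1031 and 753 to 1121. Members called in the averaged IFNB response were 1, 0 with limma-voom and 0 to 1 with 1 library left out. Called neighbours were 3, 6 with DESeq2, 8 without the filter, 6 within 1 Mb and 1 to 5 with 1 library left out: 1 without any GFP library, untreated LTR8B replicate 4 or IFNB-treated LTR8B replicates 1 or 2, and 5 without untreated LTR8B replicate 2. Called listed genes were 0, 3 with DESeq2, 3 without the filter and 0 to 1 with 1 library left out. The cause of these changes was not tested.

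With the replicate number as a block over all groups, 181 genes and 1 neighbour were called in the averaged guide comparison; same-numbered libraries of the 2 guides had correlations of deviations from -0.422 to -0.0626, so the numbers do not pair them. The block within each line, added after the data were seen, called 1598 genes in the averaged IFNB response and changed no call among the 10. The 2 GFP libraries per treatment and 8 to 28 counts for FAM124A and C19orf33 there limit the precision of their differences.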
